A study of Mus musculus with 2 samples.

Results

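Eya2, Ggt5 and Hpse are 3 of the 32285 genes counted in a single-cell study of mouse bone marrow progenitors. They were selected on their low ratios of counts in the library labelled Utx-deleted to counts in the control. That difference is therefore a description below and supports nothing by itself. The rule on ratios did not use where the genes are expressed within the control library, or how many molecules an expressing cell holds. It also did not use which other genes and surface proteins mark those cells, or how far related genes differ. The genes and lists were chosen with earlier results of these data known, so these readouts are descriptions too.

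The study holds 2 libraries, 1 control and 1 labelled Utx-deleted, of Kit+ CD45.2+ bone marrow cells of mice, collected at 10 weeks from a transplantation. The second is called the Utx-deleted library here by its label alone. Utx is another name of Kdm6a, an X-linked gene for a histone H3K27 demethylase that is also a subunit of the MLL3 and MLL4 complexes. Cells carried barcoded antibodies, 2 of which are hashtags, and were sequenced with 10x Genomics 3' chemistry. The labels used here do not name the Cre driver, the strain, the number of animals, the age of the mice or what the hashtags mark. With 1 library per group there is no replicate check, no test and no p-value. Every interval below is a 95% interval that covers counting error only.

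Eya2 encodes a transcriptional co-activator with protein phosphatase activity that works with DNA-binding homeodomain partners. Ggt5 encodes a gamma-glutamyltransferase, an enzyme of the cell surface that cleaves leukotriene C4 to leukotriene D4 and also acts on glutathione. Hpse encodes heparanase, the endoglycosidase that cuts heparan sulphate chains of the extracellular matrix and cell surface. Of the 4 genes used to place the cells, Hlf marks haematopoietic stem cells and early multipotent progenitors, Flt3 multipotent and lymphoid-primed progenitors, Pf4 the megakaryocyte lineage, and Car1 early erythroid cells.

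On GRCm38 with the GENCODE M21 annotation, Eya2 (ENSMUSG00000017897) is a protein-coding gene at chr2:165595032-165771727 on the plus strand. Ggt5 (ENSMUSG00000006344) lies at chr10:75589340-75617200 on the plus strand and Hpse (ENSMUSG00000035273) at chr5:100679484-100719716 on the minus strand. None of the 3 overlaps an annotated gene on its own strand, and Eya2 and Ggt5 each overlap 2 annotated genes on the other strand. The RefSeq promoter table used here has an entry for 1 of the 3 genes, Hpse, which is shown because the counts below come from its transcripts and differ between the libraries in 3 progenitor classes. The window runs from 250 bases before the start to 50 bases after it, at chr5:100719667-100719966 of GRCm38.p6 on the minus strand, and the capitals mark the match to an ETS motif.
Hpse promoter: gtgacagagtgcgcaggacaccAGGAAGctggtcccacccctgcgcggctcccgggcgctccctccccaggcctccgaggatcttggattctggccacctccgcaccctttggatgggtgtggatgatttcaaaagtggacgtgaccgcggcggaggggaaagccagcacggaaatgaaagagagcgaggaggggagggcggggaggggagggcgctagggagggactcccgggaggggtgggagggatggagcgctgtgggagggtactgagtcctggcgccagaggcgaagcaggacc
The window is 67% G and C and holds 19 CpG dinucleotides, against a median of 7 over 32544 promoters of the same length, of which 71.8% hold fewer. Of 5 motifs searched on both strands, the ETS motif AGGAAG occurred 1 time, at base -228 from the start, and 35.1% of all promoters hold it. No match was found for the other 4. The first of them, AGATAA, bound by GATA factors, is held by 11.2% of all promoters. The RUNX motif TGTGGT is held by 16.7%, and TTACGT, the core letters of PAR bZIP sites such as those of Hlf, by 2.72%. The E-box CANNTG is held by 72.3%. A match is a description of letters, not a binding site.

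The control library held 7827 barcodes and 122130256 gene UMIs (unique molecular identifiers, counts of single transcripts), and the Utx-deleted library 7883 barcodes and 129736034 gene UMIs. After filters, 7011 and 7206 cells were kept, with medians of 12367 and 11816 UMIs. The libraries shared 17 barcodes, of which 13 were among the kept cells in each. Kdm6a itself was at 110 UMIs per 1e+06 gene UMIs (CPM) in the control and at 103 CPM in the other library, a log2 ratio of -0.09 (-0.13 to -0.05). An exon lost inside the gene can escape 3' counting, so this value does not check the label. Cells were clustered jointly without the 3 genes, the 4 placing genes or Kdm6a, and clusters were named from marker lists. The class called HSC/MPP-like (haematopoietic stem cell or multipotent progenitor), with Mecom, Hlf and Adgrg1 among its 10 leading genes, held 570 control cells and 266 cells of the other library.

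Over all kept cells, which are the values that chose the genes, Eya2 had 830 UMIs in 410 control cells and 35 UMIs in 26 cells of the Utx-deleted library. That is 7.67 CPM (7.16 to 8.21) against 0.306 CPM (0.213 to 0.426), a log2 ratio of -4.61. Ggt5 had 1273 and 388 UMIs, or 11.8 and 3.39 CPM, a log2 ratio of -1.79 (-1.96 to -1.63). Hpse had 1437 and 637 UMIs, or 13.3 and 5.57 CPM, a log2 ratio of -1.25 (-1.39 to -1.12). All 3 were thus at least 2-fold lower. In this comparison that held for 5.36% and at least 2-fold higher for 1.39% of the 13558 genes that reached 100 UMIs in the sum of the libraries. By ratio, 4 of those genes lay below Eya2, 246 below Ggt5 and 502 below Hpse.

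In the control library most Eya2 UMIs lay in the HSC/MPP-like class and in an unnamed cluster led by Pf4 and Car1. The class held 45.8% of the control Eya2 UMIs and the cluster 40.8%. Among the larger classes the Pf4 and Car1 cluster stood highest, with 339 UMIs over 391 cells (35.6 CPM, 31.9 to 39.6). It was followed by the HSC/MPP-like class with 380 UMIs over 570 cells (23.9 CPM, 21.6 to 26.5). The small T or NK-like group (33 cells) reached 74.0 CPM (45.8 to 113), the basophil or mast-like group (35 cells) 66.2 CPM (47.9 to 89.1) and the B-like group (87 cells) 27.4 CPM (19.2 to 37.9). The intervals of the T or NK-like and basophil or mast-like groups overlap, as do those of the B-like and HSC/MPP-like groups. Neutrophil and monocyte progenitors were near the bottom, with 2 and 3 control UMIs, and 5110 maturing neutrophil-like control cells held none, which allows a share of up to 0.0587% of cells with a UMI.

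In the Utx-deleted library, the HSC/MPP-like class had 15 Eya2 UMIs in 9 of 266 cells (1.77 CPM, 0.990 to 2.92), a log2 ratio of -3.67 (-4.61 to -3.02). The share of cells with an Eya2 UMI was 31.1% (27.3 to 35.0) in the control and 3.38% (1.56 to 6.33) in the other library, although the latter's cells were deeper, with a median of 31511 UMIs against 26730. The 3 maturing neutrophil-like cells with a UMI in that library, of 5382, give a background share of 0.0557% at a median depth of 9754 UMIs. Thinned to 2000 UMIs per cell, 31 of 568 control cells (5.46%) and 1 of 266 cells (0.376%) of the class held Eya2. In the Pf4 and Car1 cluster the counts were 339 and 3 UMIs, or 35.6 and 0.707 CPM, a log2 ratio of -5.24 (-7.94 to -4.09), and 1.54% of the 9536 genes tested there were at least 2-fold lower. Basophil or mast-like cells held 43 and 1 UMIs and B-like cells 36 and 2, but different clusters hold most of these small classes in the 2 libraries. The B-like class was 69 control cells and 12 cells of the other library in a cluster led by Ebf1 and Vpreb3, and 18 and 29 cells in one led by Igkc and Ly6d. The basophil or mast-like class was 33 and 11 cells in a cluster led by Prss34 and Mcpt8, and 2 and 18 cells in one led by Cma1 and Hs6st2. Ratios within these classes therefore compare unlike cells.

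In T or NK-like cells the intervals of the 2 libraries overlapped. Eya2 had 21 UMIs over 33 control cells and 11 UMIs over 37 cells of the Utx-deleted library, at 74.0 and 36.5 CPM. The log2 ratio of -0.96 had an interval of -2.22 to 0.10, which includes no difference. That interval lies above those of the HSC/MPP-like class and the Pf4 and Car1 cluster, but it overlaps those of the B-like cells (-5.80 to -0.74), the basophil or mast-like cells (-9.86 to -1.96), both held by different clusters in the 2 libraries, and the HSC/MPP-like class of the finer clustering described next (-3.65 to -1.93). Those 8 cells with a UMI carried 31.4% of all Eya2 UMIs left in that library, against 2.53% in the control.

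A finer clustering separated the Eya2-expressing cells further. At resolution 2 the HSC/MPP-like class shrank to 218 control cells and 48 cells of the Utx-deleted library, in which Hlf was at nearly the same level, 396 and 432 CPM (log2 ratio 0.13, -0.01 to 0.26), with a UMI in 93.1% and 95.8% of cells. Flt3 still differed in them, at 209 and 41.0 CPM (log2 ratio -2.33), so the cells are alike in Hlf and not in every placing gene. In these Hlf-high cells Eya2 had 316 UMIs in 138 control cells (64.1 CPM, 57.2 to 71.6) and 13 UMIs in 7 cells of the other library (9.70 CPM, 5.17 to 16.6). The log2 ratio was -2.62 (-3.65 to -1.93). In place of the Pf4 and Car1 cluster, resolution 2 gave megakaryocyte progenitor-like cells (285 and 108 cells), with 259 and 3 Eya2 UMIs. It also gave erythroid-like cells (44 and 5 cells), with 8 and 0. In the control these classes together held fewer cells and Eya2 UMIs than that cluster (391 cells, 339 UMIs). Part of the cluster therefore lay in other clusters of the finer clustering. The control level was 39.9 CPM in the megakaryocyte progenitor-like cells. In the erythroid-like cells it was 4.32 CPM, below the 7.67 CPM of all kept cells. The megakaryocyte progenitor-like cells differed between the libraries in the placing genes too, with Pf4 at 1112 CPM in the control and 1662 CPM in the other library, and Car1 at 329.9 and 105.7 CPM, the same direction as Eya2. A wider basophil or mast-like class (93 and 62 cells) held 103 and 1 Eya2 UMIs.

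Ggt5 had a different distribution in the control library. Maturing neutrophil-like cells held 77.1% of its UMIs and the HSC/MPP-like class 14.6%. By level the highest values were in small groups, 4 UMIs over 72 shallow cells of an unnamed cluster led by Cpa6 and Oprm1 (35.4 CPM, 9.66 to 90.8) and 6 UMIs over 33 T or NK-like cells (21.1 CPM, 7.76 to 46.0). Both intervals overlap those of the maturing neutrophil-like cells, with 981 UMIs over 5110 cells (16.8 CPM, 15.8 to 17.9), and of the HSC/MPP-like class, with 186 UMIs over 570 cells (11.7 CPM, 10.1 to 13.5). The Pf4 and Car1 cluster followed with 57 UMIs (5.98 CPM, 4.53 to 7.75). Monocyte progenitor-like cells (22 UMIs, 2.18 CPM) and neutrophil progenitor-like cells (12 UMIs, 1.07 CPM) were low, so that Ggt5 was present at both ends of the neutrophil path and scarce between them.

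In the Utx-deleted library, Ggt5 was at or near 0 UMIs in the early cells and detected in the neutrophils. The HSC/MPP-like class had 1 UMI in 266 cells, against 186 UMIs in 132 of 570 control cells, a log2 ratio of -5.64 (-11.95 to -4.14). Among the cells of that class with a UMI of Hlf, 428 control cells held 162 Ggt5 UMIs and 153 cells of the other library held none, which allows a share of up to 1.96% and makes the level at least 22.9-fold lower against a floor of 3 counts in that library. The Hlf-high cells of the finer clustering held 124 and 0 UMIs (25.2 CPM in the control), at least 11.2-fold lower, and the Pf4 and Car1 cluster 57 and 0, at least 8.46-fold lower.

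Maturing neutrophil-like cells had 981 Ggt5 UMIs in the control and 362 in the Utx-deleted library, 16.8 and 5.55 CPM, a log2 ratio of -1.60 (-1.77 to -1.42). This interval lies above that of the HSC/MPP-like class, and 3.82% of the 10886 genes tested in these neutrophils were at least 2-fold lower. Largely different clusters hold this class in the 2 libraries, clusters 2, 4, 6, 8 and 13 in the control and 0, 1, 3, 5 and 16 in the other, so the cells were also cut into tertiles of Retnlg, a late neutrophil gene, a cut chosen after the data were seen. Ggt5 was highest in the upper tertile in both libraries, at 43.4 and 15.8 CPM, against 10.0 and 2.19 CPM in the lower tertile. Its log2 ratio was -2.18 (-2.63 to -1.77), -1.93 (-2.36 to -1.55) and -1.45 (-1.68 to -1.23) from the lower to the upper tertile. In hashtag 2 it was -2.57, -1.89 and -1.47. In hashtag 1 it was -1.54, -1.88 and -1.29, with no steady order. In 1 late cluster at resolution 2, led by Ccl6 and Dusp1, Ggt5 was at 89.9 CPM in 329 control cells and 119 CPM in 21 cells of the other library, with an interval on the log2 ratio of -0.58 to 1.25.

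By level, Hpse was highest in the monocyte branch. By number, the abundant maturing neutrophil-like cells held 42.7% of its control UMIs and 52.3% of the cells with a UMI, and monocyte progenitor-like cells 34.4% and 22.2%. In the control library the monocyte progenitor-like class had 495 UMIs over 294 cells (48.9 CPM), with a UMI in 72.1% of cells (66.6 to 77.2), the highest level of any class. An unnamed cluster led by the antigen-presentation genes Cd74 and H2-Aa followed at 30.7 CPM over 37 cells. The HSC/MPP-like class (190 UMIs, 11.98 CPM), maturing neutrophil-like cells (614 UMIs, 10.5 CPM), neutrophil progenitor-like cells (96 UMIs, 8.60 CPM) and B-like cells (11 UMIs, 8.36 CPM) were close together. The Pf4 and Car1 cluster, where Eya2 was high, had 9 Hpse UMIs in 391 cells (0.945 CPM), and the basophil or mast-like and T or NK-like groups had none in either library.

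In the Utx-deleted library Hpse was detected in 459 cells, Ggt5 in 320 and Eya2 in 26. Monocyte progenitor-like cells had 381 UMIs over 611 cells (20.9 CPM), a log2 ratio of -1.22 (-1.42 to -1.03), and 38.5% of cells had a UMI (34.6 to 42.4). Neutrophil progenitor-like cells had 48 UMIs over 577 cells (3.18 CPM), a log2 ratio of -1.42 (-1.97 to -0.92). At least 2-fold lower in these classes were 1.3% of the 10237 and 1.01% of the 9844 genes tested. Hpse was also lower in the HSC/MPP-like class, with 22 UMIs over 266 cells (2.59 CPM) and a log2 ratio of -2.15 (-2.92 to -1.57), and in maturing neutrophil-like cells, with 153 UMIs (2.35 CPM) and a log2 ratio of -2.16 (-2.43 to -1.91). The intervals of these 2 classes do not overlap that of the monocyte progenitor-like class, but both overlap that of the neutrophil progenitor-like class. By hashtag 1 alone, the HSC/MPP-like value was -1.47 (-2.48 to -0.75), which overlaps the monocyte progenitor-like value of -1.16 (-1.51 to -0.83). Across the tertiles of Retnlg in maturing neutrophil-like cells, the log2 ratio was -2.22, -2.13 and -1.08 from the lower to the upper one. The upper tertile held 26 and 16 UMIs, and its interval (-2.11 to -0.16) includes that of the monocyte progenitor-like class.

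At resolution 2, Hpse in the Hlf-high cells had 59 UMIs over 218 control cells (11.97 CPM) and 0 over 48 cells of the Utx-deleted library, at least 5.35-fold lower. In the cells that the finer clustering set beside them, an unnamed cluster led by Slc24a3 and Cpa3 (378 and 277 cells), it had 138 and 27 UMIs, 11.7 and 3.04 CPM, a log2 ratio of -1.90 (-2.60 to -1.34). The upper limit of the log2 ratio in the Hlf-high cells, -2.08, lies inside that interval, so the data do not separate these clusters. In B-like cells, again mostly of different clusters in the 2 libraries, Hpse had 11 and 6 UMIs, a log2 ratio of 0.70 (-1.12 to 2.16).

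**Figure D1:**
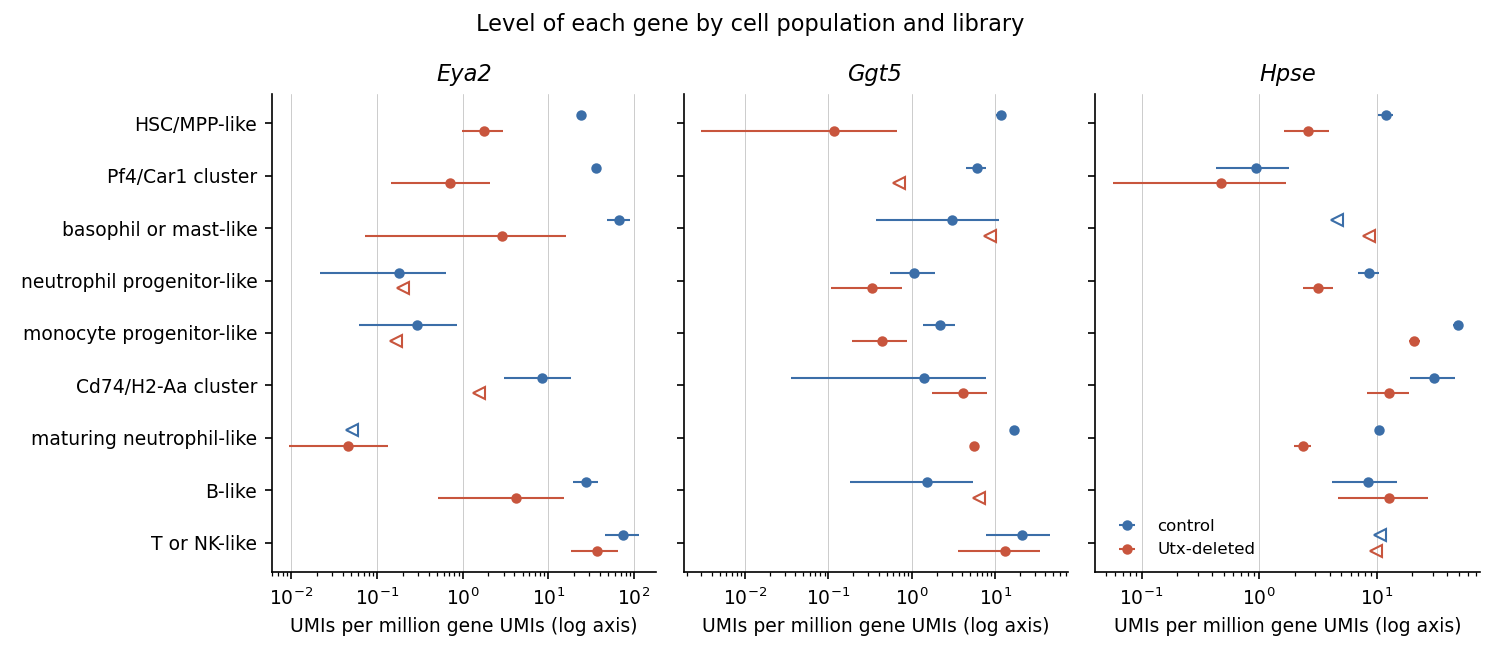
Level of Eya2, Ggt5 and Hpse in CPM on a log axis, in 9 cell populations of the control library (blue) and the Utx-deleted library (red). Points are the library values, lines exact Poisson 95% intervals, and open triangles mark a population with 0 UMIs at the level that 3 counts would give. Eya2 spans from 0 UMIs in maturing neutrophil-like control cells to 74.0 CPM in T or NK-like control cells, Ggt5 is lowest of its detected values at 0.118 CPM in HSC/MPP-like cells of the red library, and Hpse is highest in monocyte progenitor-like cells.

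Taking the HSC/MPP-like class as a whole, all 3 genes were at least 2-fold lower. So were 3.21% of the 10485 genes tested in it, with 1.48% at least 2-fold higher, and the median log2 ratio of those genes was -0.02. Of them, 2 had a lower ratio than Ggt5, 16 a lower ratio than Eya2 and 77 a lower ratio than Hpse. The class was not the same mixture in both libraries. Hlf was at 166 CPM in the control and 99.4 CPM in the other library, and Flt3 at 123 and 18.0 CPM. Cells with over 1% of UMIs from maturing-neutrophil markers made up 1.75% and 7.52% of the class. Without those cells, an alternative chosen after seeing the data, the log2 ratios in the class were -3.78 for Eya2 (355 and 12 UMIs), -5.47 for Ggt5 (176 and 1 UMIs) and -2.09 for Hpse (186 and 21 UMIs).

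The share of each class also differed between the libraries, the HSC/MPP-like class being 570 of 7011 and 266 of 7206 kept cells. With the control level of each population held and only the shares of populations taken from the other library, the log2 ratio over all cells was -1.01 for Eya2, -0.06 for Ggt5 and 0.30 for Hpse. With 7 named classes weighted equally in both libraries, the log2 ratios were -2.08 for Eya2, -1.54 for Ggt5 and -1.08 for Hpse. That mean leaves out the unnamed clusters, among them the Pf4 and Car1 cluster with 40.8% of the control Eya2 UMIs, and counts the 33 T or NK-like control cells as much as any other class, so for Eya2 it does not describe the library with its composition removed.

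The hashtags divide each library into cells of hashtag 1 and hashtag 2, which are not stated to be animals and are not replicates. In the HSC/MPP-like class Eya2 had 156 UMIs over 286 control cells of hashtag 1 (19.0 CPM) and 206 over 276 of hashtag 2 (28.1 CPM). In the Utx-deleted library it had 5 UMIs over 99 cells (1.65 CPM) and 10 over 159 cells (1.94 CPM). Both control values lay above both values of the other library, and within the control hashtag 2 was the higher, with a log2 ratio of 0.57 (0.26 to 0.88). For Ggt5 the counts were 88 and 96 UMIs in the control, 10.7 and 13.1 CPM, and 0 and 1 in the other library. Hpse had 112 and 74 UMIs in the control, 13.6 and 10.1 CPM, and 14 and 8 in the other library, 4.62 and 1.56 CPM, where hashtag 2 was lower than hashtag 1 by a log2 ratio of -1.50 (-3.03 to -0.22).

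In the Hlf-high cells Eya2 had 135 and 165 UMIs by hashtag in the control, over 95 and 121 cells, and 3 and 10 UMIs in the other library, over 14 and 32 cells. Ggt5 had 54 and 68 against 0 and 0, and Hpse 28 and 30 against 0 and 0. The Pf4 and Car1 cluster had 207 and 131 Eya2 UMIs in the control and 0 and 2 in the other library. Hpse in monocyte progenitor-like cells was at 45.0 and 53.3 CPM by hashtag in the control and at 20.1 and 20.6 CPM in the other library. In these comparisons the hashtag values of the 2 libraries did not overlap for any of the 3 genes. The hashtags split the same counts whose ratio chose the genes, so this adds no support. It also did not hold everywhere: Hpse in the Cd74 and H2-Aa cluster was at 21.5 CPM in the control and 35.6 CPM in the other library by hashtag 1.

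**Figure D2:**
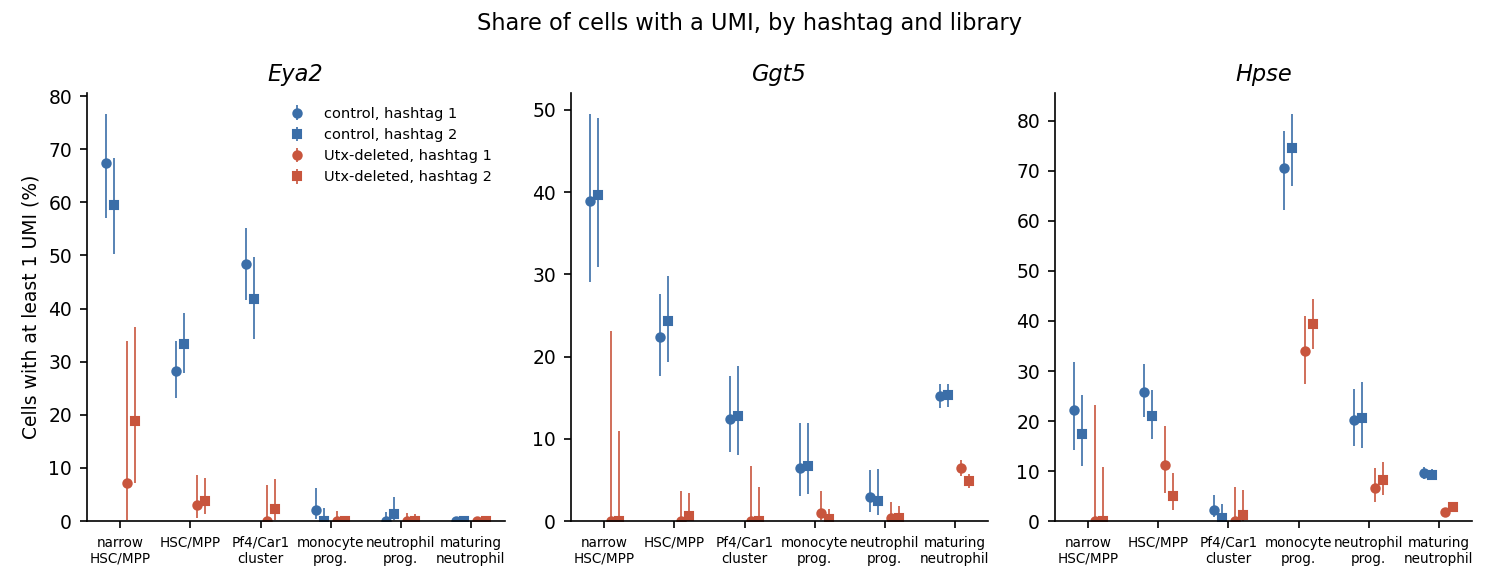
Percent of cells with at least 1 UMI of each gene in 6 cell populations, for hashtag 1 (circles) and hashtag 2 (squares) of the control library (blue) and the Utx-deleted library (red), with exact Clopper-Pearson 95% intervals. Narrow HSC/MPP are the Hlf-high cells of the finer clustering, where 67.4% and 59.5% of control cells and 7.14% and 18.8% of cells of the other library had an Eya2 UMI.

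Over all kept cells, a cell with Eya2 held a mean of 2.02 UMIs in the control (at most 13) and 1.35 in the Utx-deleted library (at most 3), and 100 control cells against 2 held 3 or more. In the HSC/MPP-like class the means were 2.15 and 1.67 UMIs over 177 and 9 cells. Cells with Ggt5 held a mean of 1.26 and 1.21 UMIs over all kept cells, with exactly 1 UMI in 79.2% and 83.1% of them. Cells with Hpse held 1.51 and 1.39 UMIs. The difference for Hpse was larger in monocyte progenitor-like cells, at 2.34 and 1.62 UMIs per cell with a UMI, where 75 of 212 control cells and 37 of 235 cells of the other library held 3 or more. A cell with a UMI holds at least 1 by definition, so these means are bounded from below, and at these depths they cannot separate fewer expressing cells from a lower level in every cell.

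**Figure D3:**
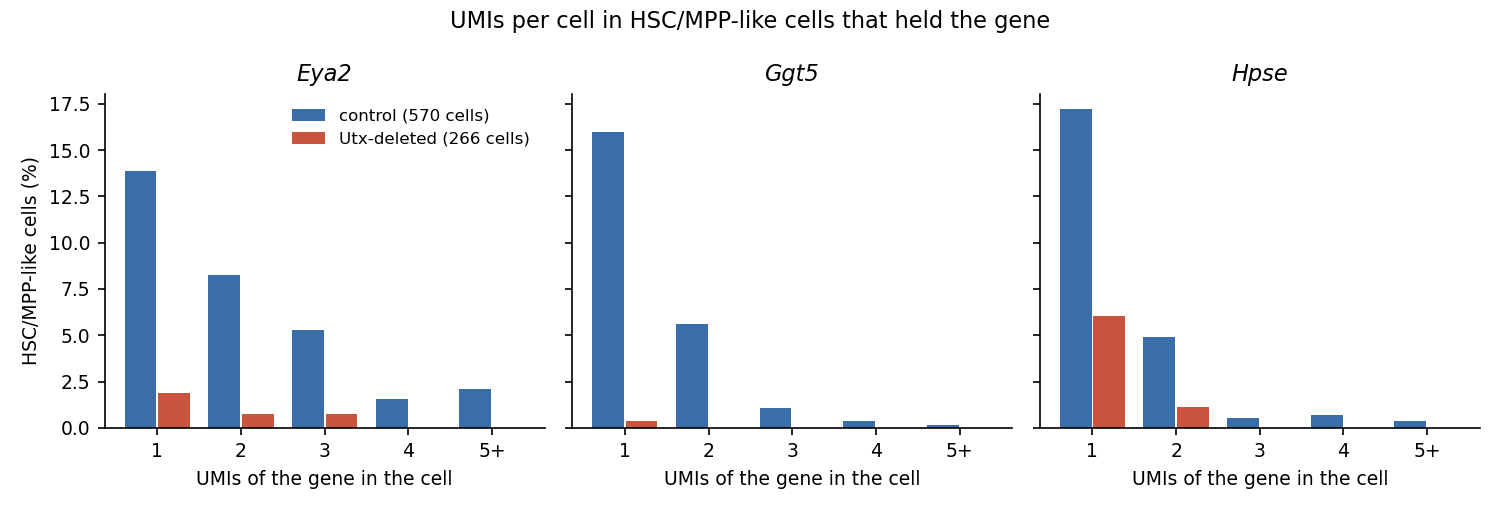
Percent of HSC/MPP-like cells holding 1, 2, 3, 4 or at least 5 UMIs of each gene, in 570 control cells (blue) and 266 cells of the Utx-deleted library (red). Bars start at 0, and cells without a UMI are not drawn. The red bars end at 3 UMIs for Eya2, 1 for Ggt5 and 2 for Hpse.

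Co-detection placed the genes among the 4 placing genes. In the control library Eya2 was found in 33.3% of cells with a Pf4 UMI (27.8 to 39.2) against 4.71% of cells without one, in 25.6% with Flt3 against 4.23%, in 22.5% with Car1 against 5.26% and in 16.1% with Hlf against 3.15%. Cells with any of these genes are deeper than the rest. Thinned to 2000 UMIs per cell, the shares were 5.50% against 0.95% for Pf4, 6.04% against 0.911% for Flt3, 2.33% against 0.998% for Car1 and 4.32% against 0.859% for Hlf. The intervals with and without the partner stayed apart for Pf4, Flt3 and Hlf, whereas for Car1, with 3 of 129 cells (0.482 to 6.65), they overlapped. Of the 410 control cells with Eya2, 57.3% also had Hlf, 33.2% Flt3, 22.7% Pf4 and 13.2% Car1.

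In the Utx-deleted library, Eya2 was found in 10 of 851 cells with Hlf (1.18%), 3 of 154 with Flt3 (1.95%), 3 of 130 with Pf4 (2.31%) and 0 of 52 with Car1, which allows a share of up to 5.77%. By UMIs, cells with Pf4 held 196 and 5 Eya2 UMIs in the 2 libraries, cells with Flt3 307 and 5, and cells with Car1 84 and 0, at least 6.41-fold lower. In the Pf4-positive cells the counts by hashtag were 112 and 83 in the control and 0 and 4 in the other library.

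Over all control cells Hpse was found more often beside Flt3, in 36.7% of cells with it (32.6 to 41.0) against 11.7% without. After thinning this was 6.04% (2.80 to 11.2) against 1.79% (1.49 to 2.14), with 9 cells holding both. The thinned shares were 9.46% against 1.74% in hashtag 1. In hashtag 2 they were 2.70% (0.329 to 9.42) against 1.75% (1.34 to 2.255), where the intervals overlap. Within the HSC/MPP-like class Hpse was found in 28.05% of cells with Flt3 (23.4 to 33.0) against 16.6% without (11.9 to 22.2). Thinning gave 5.26% (1.96 to 11.1) against 2.64% (1.37 to 4.57) there, with overlapping intervals. Over all control cells again, Hpse was found with Hlf in 19.5% (17.5 to 21.6) against 12.1% (11.2 to 12.9), but after thinning in 1.85% against 1.89%. With Pf4 it was found in 11.8% against 13.7%, and with Car1 in 7.08% against 13.8%. Cells with Flt3 had 384 Hpse UMIs in the control (25.9 CPM) and 44 in the other library (10.2 CPM), a log2 ratio of -1.31 (-1.83 to -0.89), and the share with Hpse there was 20.1% (14.1 to 27.3). There were 531 cells with Flt3 in the control and 154 in the other library. The make-up of these cells differed: 66.5% of them in the control and 30.5% in the other library were HSC/MPP-like, 19.8% and 33.1% monocyte progenitor-like, and 4.14% and 23.4% of the Cd74 and H2-Aa cluster. The last 2 populations had the highest Hpse levels, so this ratio compares different mixtures.

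Over all control cells Ggt5 was found more often beside Flt3, in 22.8% of cells with it (19.3 to 26.6) against 13.7% without (12.9 to 14.6), but thinning to 2000 UMIs gave 2.69% (0.736 to 6.73) against 3.42% (2.997 to 3.88), where the intervals overlap. For the other 3 placing genes the intervals overlapped without thinning. Ggt5 was found in 15.1% of cells with Hlf and 14.2% without, in 14.7% with Pf4 and 14.4% without, and in 11.2% with Car1 and 14.5% without. Within the HSC/MPP-like class it was found in 26.4% of cells with Hlf (22.3 to 30.8) against 13.4% without (8.25 to 20.1), and in 29.5% with Flt3 against 12.9%. After thinning these were 5.04% (2.05 to 10.1) against 1.40% (0.515 to 3.02) for Hlf and 2.63% (0.546 to 7.50) against 2.20% (1.06 to 4.01) for Flt3, with overlapping intervals. Of the cells with Hlf over the whole libraries, 48.3% in the control and 55.4% in the other library were maturing neutrophil-like, and 29.3% and 18.0% were HSC/MPP-like. In that mixed gate the counts were 519 and 16 UMIs for Eya2 (log2 ratio -4.31), 291 and 26 for Ggt5 (-2.81) and 417 and 72 for Hpse (-1.89), where 3.14% of 11574 genes were at least 2-fold lower and 0.916% higher. Without cells over 1% of neutrophil-marker UMIs, the Ggt5 counts in the gate were 182 and 1.

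Among themselves the 3 genes did not share cells equally. In control HSC/MPP-like cells, Eya2 was found in 47.7% of 132 cells with Ggt5 (39.0 to 56.6) and in 26.0% of 438 cells without it (22.0 to 30.4), with 63 cells holding both. It was found in 21.5% of 135 cells with Hpse (14.9 to 29.4) and 34.0% of 435 cells without it (29.6 to 38.7). Ggt5 was found in 20% of cells with Hpse and 24.1% of cells without, with overlapping intervals. Thinning left 13 cells with Ggt5 and 18 with Hpse, too few to compare. In the Utx-deleted library 9, 1 and 19 cells of the class held Eya2, Ggt5 and Hpse, too few to read their overlap.

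**Figure D4:**
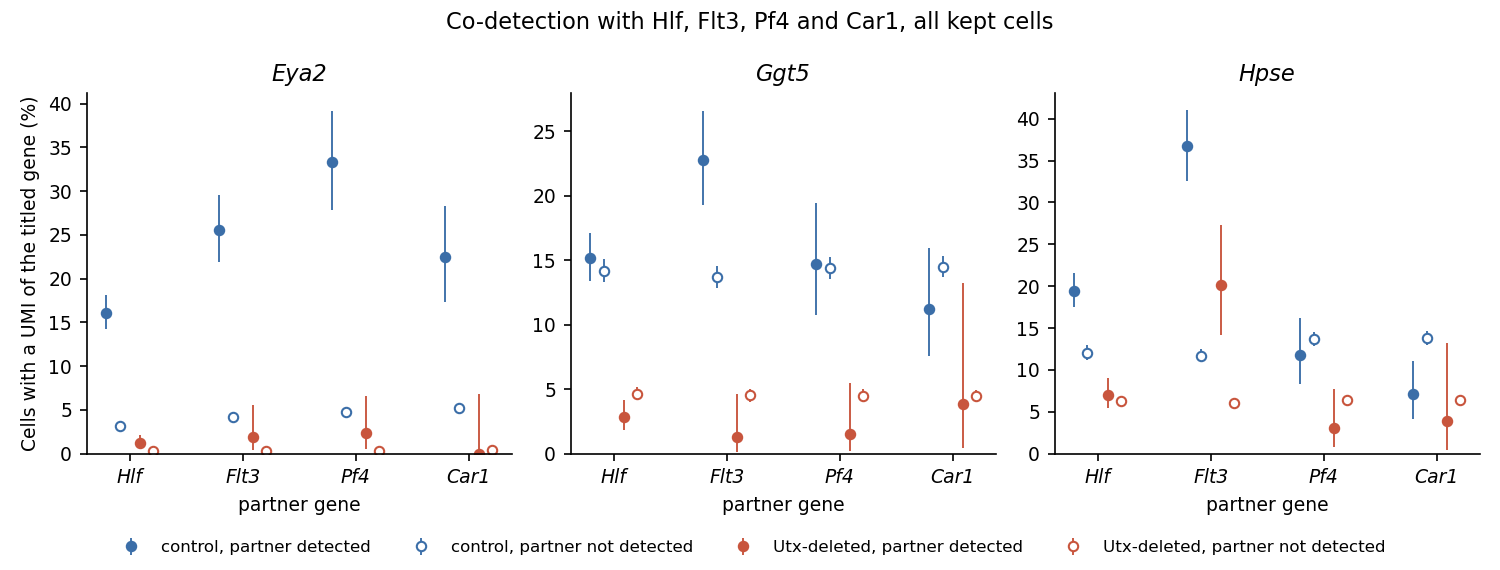
Percent of kept cells with a UMI of Eya2, Ggt5 or Hpse among cells with (filled) and without (open) a UMI of Hlf, Flt3, Pf4 or Car1, in the control library (blue) and the Utx-deleted library (red), with exact Clopper-Pearson 95% intervals and no thinning. In the control Eya2 is more frequent beside each of the 4 genes, Hpse is most frequent beside Flt3, and Ggt5 lies between 14.2% and 15.1% with and without Hlf or Pf4 and at 22.8% beside Flt3.

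Surface proteins, which the rule on ratios did not use, gave another placement. Tag counts are given as medians per 10000 tag UMIs other than hashtags. In control HSC/MPP-like cells, the 177 with Eya2 had a median Sca1 of 254 against 54.4 in the 393 without it, CD34 of 436 against 231, CD150 of 24.1 against 11.2, CD201 of 19.9 against 8.27 and CD16/32 of 478 against 908. Sca1, CD150 and CD201 are used to enrich stem cells, and CD16/32 marks granulocyte and monocyte progenitors. The 132 cells with Ggt5 showed the same direction, with Sca1 at 162 against 62.5 and CD16/32 at 496 against 857. The 135 cells with Hpse did not, with Sca1 at 59.2 against 75.9 and CD16/32 at 813 against 744. The cells with Eya2 were shallower in RNA than those without it, with medians of 23332 and 28412 UMIs. Over the whole class, Sca1 was 70.2 in the control and 41.4 in the other library, CD150 13.8 and 3.93, and CD16/32 750 and 1056.

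The other genes of each pathway were taken from lists of relatives and partners. Of the 12 genes of the network of Eya and Dach genes and their homeodomain partners, 6 had enough UMIs in the HSC/MPP-like class, and 1 of these, Eya2, was at least 2-fold lower, with none higher, beside 3.21% lower and 1.48% higher of all genes tested in the class. Eya1, its close relative, had 1182 and 390 UMIs there (74.5 and 46.0 CPM, log2 ratio -0.69). Over all kept cells Eya1 was also just past 2-fold, at 18.0 and 8.95 CPM (-1.01, -1.12 to -0.90). There 2 of the 6 genes tested were lower, where 5.36% of all genes were. One of the 2 is Eya2, which was chosen for this ratio, so the count is partly fixed by the choice. In the class, Eya3 had 916 and 500 UMIs (57.7 and 58.9 CPM, 0.03). Dach1, a partner in the network and the most abundant, was at 879 and 1142 CPM, a log2 ratio of 0.38. The median of the list without Eya2 was 0.28, beside -0.02 for all tested genes.

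Of 19 genes of glutathione and leukotriene cleavage, 12 were tested in the HSC/MPP-like class, and 3 were at least 2-fold lower with none higher, beside the same 3.21% and 1.48% of all genes. One of the 3 is Ggt5, which was chosen for its ratio. Beside Ggt5 these were Ltc4s and Cysltr2. Ltc4s, the synthase that makes the leukotriene C4 on which Ggt5 acts, had 151 and 14 UMIs (9.52 and 1.65 CPM, log2 ratio -2.44, -3.43 to -1.74). Cysltr2, a cysteinyl leukotriene receptor, had 139 and 30 UMIs (8.76 and 3.54 CPM, -1.27, -1.93 to -0.73). The genes for earlier steps were not past 2-fold. Alox5 was at 6.43 and 10.3 CPM (log2 ratio 0.68, 0.24 to 1.10) and Alox5ap at 189 and 168 CPM. Lta4h, which leads to leukotriene B4 instead, was at 133 and 219 CPM. Mgst2 was at 19.5 and 10.6 CPM (-0.87, -1.23 to -0.53), and neither of these was past 2-fold. The list median without Ggt5 was -0.06.

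Of 32 heparan sulphate genes, 18 were tested in the class. Hpse, chosen for its ratio, was the 1 gene at least 2-fold lower, and 2 were at least 2-fold higher, again beside 3.21% and 1.48% of all genes. The higher genes were Sdc2, a cell-surface proteoglycan that carries heparan sulphate, with 161 and 295 UMIs (10.2 and 34.8 CPM, log2 ratio 1.77), and Hs6st2, a sulphotransferase that modifies the chains, with 84 and 95 UMIs (5.30 and 11.2 CPM, 1.08). Srgn, the intracellular proteoglycan of granules, was at 1177 and 1377 CPM. The list median without Hpse was -0.03. Over all kept cells 25 genes of the list were tested, of which 3 were lower and 4 higher, where 5.36% and 1.39% of all genes were. The lower genes there were Hpse, Ndst1, which starts the sulphation of the chains, at 35.1 and 11.7 CPM (-1.59), and Sdc4, another cell-surface proteoglycan, at 2.13 and 0.420 CPM (-2.32).

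**Figure D5:**
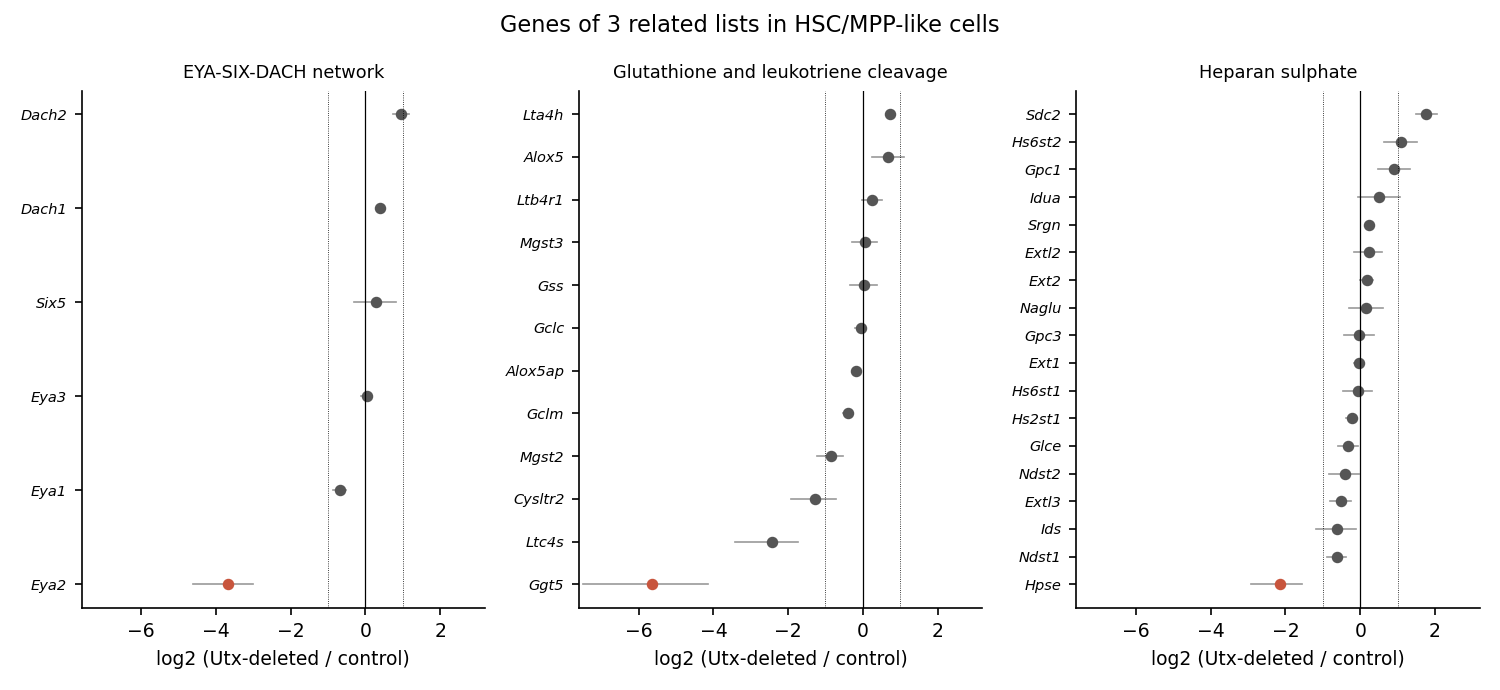
Log2 ratio of the Utx-deleted library over the control in HSC/MPP-like cells for each gene with at least 100 UMIs in 3 lists, with exact conditional 95% intervals. Red points are Eya2, Ggt5 and Hpse, grey points the other list genes, dotted lines mark 2-fold, and the interval of Ggt5 runs on past the left edge to -11.95. Each red point is the lowest of its list, and Sdc2 and Hs6st2 are past 2-fold on the other side.

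The genes whose control levels across 14 clusters were most like each of the 3 were named by Pearson correlation of log2(CPM + 1), a description over clusters of 1 library. Only clusters with at least 50 control cells entered. The T or NK-like and basophil or mast-like clusters, where Eya2 was highest, were therefore left out. For Eya2 they were Chic1 (0.996), Gimap5, 6030498E09Rik, Cyyr1 and Ccnjl. Despite this likeness their ratios between the libraries spread widely in the HSC/MPP-like class. Cyyr1 had 228 and 14 UMIs (log2 ratio -3.03), 6030498E09Rik 196 and 14 (-2.81) and Gimap5 137 and 32 (-1.16). Chic1 had 58 and 28 (-0.12) and Ccnjl 78 and 44 (0.09). Cyyr1, 6030498E09Rik and Gimap5 were thus at least 2-fold lower, as were 3.21% of the 10485 genes tested in the class. For Ggt5 they were Dennd5a (0.961), Samsn1, Dlst, Dennd3 and Smim3, with log2 ratios in the class from -0.55 for Smim3 to 0.04 for Dlst. For Hpse they were Sap30 (0.860), Spg21, 2310040G24Rik, Tor1a and Cnih4, with ratios from -0.01 for Cnih4 to 0.12 for Tor1a.

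Genes within 250 kb of the 3 were compared after the data were seen. In the HSC/MPP-like class, 0 of 5 neighbours of Eya2, 0 of 8 of Ggt5 and 0 of 9 of Hpse with at least 20 UMIs were past 2-fold in either direction. Of all 12926 genes with 20 UMIs in the class 8.48% were, so counts of 0 among so few neighbours are near that background. Over all kept cells 0 of 7, 3 of 11 and 2 of 12 were at least 2-fold lower, where 7.66% of 16352 genes were. Among the neighbours of Ggt5 this included its relative Ggt1, 3140 bases away, with 75 and 19 UMIs.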

How the data were processed

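The deposited matrices give, for each cell barcode, the raw count of UMIs of 32285 genes and 15 antibody tags. They were made with Cell Ranger 7.1.0 on mm10, per the submitters' processing notes, and their values are whole numbers with no scaling. The members and lists were chosen with earlier results of these data known. With Python 3.11.15, scanpy 1.11.5 and scipy 1.17.1, cells with at least 500 genes and under 10% mitochondrial UMIs were kept (349 and 214 barcodes failed). Left to set its own threshold, Scrublet found 0.0134% and 0% doublets, which is not credible, so the top 6% of scores were left out (467 and 463 cells), which is incomplete. A hashtag was called at 100 UMIs and 5 times the other. Cells were scaled to 10000, and 2000 variable genes without the compared genes gave 30 components, 15 neighbours and Leiden clusters (leidenalg 0.10.2) at resolution 1. Clusters were named by their best mean z-score of class markers, given a lead of 0.25 over the next class and 3 or more markers detected in 25% of the cells. No other class could have more markers among the 10 leading genes, and a much shallower cluster needed a marker of its class there. The Pf4 and Car1 cluster scored best as megakaryocyte progenitor. It stayed unnamed because its leading genes held more erythroid markers, Car1 and Car2, than megakaryocyte markers, Pf4.

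UMIs were summed per library and class and given as CPM with exact Poisson intervals. Log2 ratios add 1 UMI to each sum and have exact conditional binomial intervals, and shares have Clopper-Pearson intervals. A count of 0 was read against a floor of 3 counts. Intervals cover counting error only. Named genes were the 3 members, the placing genes, Kdm6a, list genes past 2-fold or with 1000 UMIs (at most 6 a list), and the 5 most alike across clusters with 50 control cells. Alox5 and Mgst2 were named in addition. On simulated counts over all kept cells, 193 of 200 genes changed 4-fold were recovered, 0 of 13359 unchanged genes passed 2-fold, and 94.5% of intervals held the true ratio. Those counts were Poisson draws from the pooled level of each gene, the counting model that the intervals assume. The simulation therefore checks the arithmetic and does not cover differences between libraries or in cell mixture. Scaling factors for 1 alternative came from edgeR 4.0.16.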

Additional observations from a re-analysis of the deposited data

How the results depend on the processing

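Alternatives were run for the log2 ratios over all kept cells, in Hlf-positive cells and in the HSC/MPP-like class. There each kept its sign, with 64 values inside the counting interval of the reported value and 20 outside it. In other populations signs could turn by hashtag: Hpse in the Cd74 and H2-Aa cluster was at -1.27 overall and 0.55 in hashtag 1 (5 and 16 UMIs), and in Car1-positive cells at -0.78 and 1.35 (8 and 2 UMIs). Over all kept cells (reported: Eya2 -4.61, Ggt5 -1.79, Hpse -1.25), thinning to 2000 UMIs gave -3.17, -1.39 and -0.95, and equal class weights -2.08, -1.54 and -1.08. Hashtag 1 alone gave -1.29 for Ggt5 and -1.45 for Hpse, and hashtag 2 alone -2.23 and -1.09. In Hlf-positive cells (-4.31, -2.81, -1.89), thinning left 15 and 1, 13 and 1, and 6 and 1 UMIs and gave -2.05, -1.86 and -0.86. The HSC/MPP-like class in place of the gate gave -3.67 for Eya2 and -5.64 for Ggt5. For Ggt5, leaving out cells over 1% of neutrophil-marker UMIs gave -5.51, and a gate of 2 Hlf UMIs -4.98. In the HSC/MPP-like class, resolution 2 gave -2.62 for Eya2 and -4.03 for Hpse, and hashtag 1 alone, chosen after seeing the data, -1.47 for Hpse. The cause of these shifts was not tested.

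The number of genes at least 2-fold lower and higher moved with the minimum, since fewer or more genes enter. At 20 UMIs it was 1252 and 407 over all kept cells, 662 and 434 in the HSC/MPP-like class and 723 and 318 in Hlf-positive cells, and at 500 UMIs it was 353 and 77, 87 and 45, and 108 and 27. No paired analysis was possible because each group is 1 library, and for the same reason no library could be left out. Class names were rebuilt here, so class sizes depend on the marker lists.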
